A study of Homo sapiens with 35 samples.

Results

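The 4 HOX gene clusters and the CDX genes were followed through stem cell differentiation toward primitive streak, definitive endoderm and mesoderm. The set was chosen by name: every gene symbol beginning HOXA, HOXB, HOXC or HOXD, with the antisense RNAs of those clusters, the HOXA and HOXD cluster RNAs HOTAIRM1, HOTTIP, HAGLR and HAGLROS, the HOXC cluster RNA HOTAIR, and CDX1, CDX2 and CDX4. This gave 58 of the 33539 genes listed in the single-cell data: 17 of HOXA, 14 of HOXB, 12 of HOXC, 12 of HOXD and 3 CDX genes. Of the 55 HOX cluster members, 39 encode proteins and 16 are other RNAs. The bulk RNA data listed 16103 genes, of which 7 belonged to the set, among them HOXA7, HOXB7, HOXD1, CDX1, CDX2 and CDX4.

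HOX genes encode homeodomain transcription factors that give cells along the body axis their position. They lie in 4 clusters, and within a cluster the genes of low paralogue number are switched on first and most anteriorly, those of high number later and more posteriorly. CDX factors, homeodomain proteins of the posterior embryo, bind and activate HOX genes and are themselves targets of WNT signalling in the primitive streak, and the clusters are held silent in pluripotent cells by Polycomb complexes.

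All samples came from H1, an established human embryonic stem cell line, grown as a flat layer. The endoderm protocol gave RPMI medium with 100 ng/ml Activin A (AA, a ligand that signals like NODAL) and 3 µM CHIR99021 (CHIR, an inhibitor of GSK3 that activates WNT signalling) on the first day, then Activin A alone. In other arms BRD or JNJ, small molecules given only by these short names and without doses, took the place of Activin A. Single cells were counted after cell sorting, with no gate given. Single cells were measured in 3 libraries, 1 a group: cells at 36 h labelled primitive streak (AA+CHIR, then AA), cells at 72 h labelled definitive endoderm (AA+CHIR, then AA, called Endo here), and cells at 72 h made with a commercial mesoderm induction medium (Meso). Bulk RNA was measured in groups of 2 replicates. At 6 h these were untreated cells, CHIR, AA+CHIR, BRD+CHIR, JNJ+CHIR and BRD alone. At 24 h they were CHIR, AA+CHIR, BRD+CHIR, JNJ+CHIR and BRD alone. At 72 h they were cells sorted as definitive endoderm from 4 arms, all with CHIR on the first day: AA, BRD, JNJ, and BRD with an agent written LoAA (BRD+LoAA), each kept through the later steps. An untreated pair at 24 h was not analysed here.

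The single-cell libraries held 4193, 4511 and 5632 cells after filtering (36 h, Endo and Meso), with a median of 21152, 7680 and 7874 unique molecular identifiers (UMIs, each counting 1 captured RNA molecule once) a cell. Levels are given as CPM, a gene's UMIs scaled by all UMIs of the library to the usual common total. Because 1 tag is counted per molecule at its 3′ end, these levels do not scale with transcript length. With 1 library a group there was no test between the groups, and the 95% intervals are exact and cover counting error only. Between 50 and 56 cell barcodes occurred in both libraries of a pair, of 6244 to 6321 a library. SOX17, of definitive endoderm, stood at 122 CPM in Endo and at 0 in the other libraries, and TBXT, of primitive streak and early mesoderm, stood at 326 in Meso, 28.3 at 36 h and 3.05 in Endo. Streak markers did not set the 36 h library apart: the list of 8 summed to 496 CPM there, 729 in Endo and 623 in Meso, while the list of 10 pluripotent genes summed to 2392, 1644 and 1021. That library is therefore called by its time. Bulk libraries held 4572385 to 49503832 counts, and bulk CPM are on TMM-scaled library sizes. The labels do not say that the bulk replicates were separate cultures, so p-values measure only the spread between these samples, which may be technical. In bulk RNA, fewer cells of a type and less RNA per cell cannot be told apart.

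On GRCh38 the HOXA cluster lies on chromosome 7, and the HOXB members span chr17:48528526-48729178, HOXC chr12:53935328-54056030 and HOXD chr2:176092891-176190907. The CDX genes are alone, CDX1 at chr5:150166795-150184558, CDX2 at chr13:27962137-27971139 and CDX4 at chrX:73447254-73455245. Gene models in the clusters overlap, 48 of the 58 with another member, 40 of them on the opposite strand. HOTAIRM1 lies at chr7:27095647-27100265 on the plus strand, HOXA-AS3 overlaps HOXA3 to HOXA7, and HOXC4 and HOXC5 overlap on the same strand. The strand setting of the counting is not given in the sources used here. Whether reads of opposite-strand partners were kept apart is therefore not known, and same-strand partners such as HOXC4 and HOXC5 may share reads. Values of overlapping members are uncertain to that degree.

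3 upstream windows are shown because their genes carry the findings below: HOXB1, the most abundant HOXB member of the Meso library; HOXA-AS3, the HOXA member that differed most between 2 Meso cell clusters; and CDX4, the most abundant member at 36 h. Each is the 250 bases before the RefSeq start, 5′ to 3′ on the gene's strand (RefSeq, GRCh38.p14), at chr17:48531012-48531261 (minus), chr7:27146913-27147162 (plus) and chrX:73446803-73447052 (plus). Capitals mark matches to the TCF/LEF motif CTTTGA (the factors of WNT signalling), the CDX motif TTTAT and the PBX-HOX motif TGATNNAT, searched on both strands.
HOXB1: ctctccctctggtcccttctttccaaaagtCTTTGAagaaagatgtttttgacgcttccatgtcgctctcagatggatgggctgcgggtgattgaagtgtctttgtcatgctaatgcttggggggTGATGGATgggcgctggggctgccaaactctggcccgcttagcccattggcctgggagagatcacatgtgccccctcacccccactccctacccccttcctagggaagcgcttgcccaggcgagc
HOXA-AS3: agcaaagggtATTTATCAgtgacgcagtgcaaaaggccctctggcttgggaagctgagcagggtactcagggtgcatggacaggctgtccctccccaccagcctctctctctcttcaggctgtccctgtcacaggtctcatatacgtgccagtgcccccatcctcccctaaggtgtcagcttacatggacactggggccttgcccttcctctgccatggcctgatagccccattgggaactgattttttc
CDX4: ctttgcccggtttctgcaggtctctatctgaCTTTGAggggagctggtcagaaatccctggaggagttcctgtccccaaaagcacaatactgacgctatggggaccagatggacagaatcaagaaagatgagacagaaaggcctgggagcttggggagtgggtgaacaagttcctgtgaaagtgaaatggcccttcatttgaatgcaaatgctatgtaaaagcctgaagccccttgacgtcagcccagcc
In the HOXB1 window CTTTGA lies 220 to 215 bases before the start and TGATNNAT 125 to 118 bases before it. In the HOXA-AS3 window the PBX-HOX match, on the opposite strand at 240 to 233 bases before the start, contains the CDX match at 239 to 235. The HOXA-AS3 window lies inside the GENCODE v29 model of that gene, chr7:27129977-27155928 (plus). It is therefore upstream of the RefSeq start only. In the CDX4 window CTTTGA lies 219 to 214 bases before the start. Windows were on hand for 33 of the 58 members, 44 windows in all. CTTTGA was in 6 of these 44 (13.6%) and in 11.2% of all 35116 windows. TTTAT was in 19 of 44 (43.2%, against 32.7% of all), and TGATNNAT was in 4 of 44 (9.09%, against 6.47%). Each share was somewhat above that of all windows, over few member windows, and a match describes letters, not a bound site.

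The Meso library held nearly all of the signal. The 58 members summed to 48009 UMIs in Meso, 1065 CPM (95% interval 1055 to 1074), to 1042 UMIs at 36 h, 13.5 CPM (12.7 to 14.3), and to 70 UMIs in Endo, 2.07 CPM (1.62 to 2.62). At least 50 UMIs were reached by 29 members in Meso, by 4 at 36 h (CDX4, HOTAIRM1, CDX1 and CDX2) and by none in Endo. In Meso 4 members had no UMI (HOXA11, HOXC12, HOTAIR and HOXD12), against 39 at 36 h and 36 in Endo. A count of 0 was read as up to 3 UMIs, that is 0.0665 CPM in Meso, 0.0389 at 36 h and 0.0888 in Endo. All but 4 of the 29 passed this minimum through Meso alone, so they are described one by one and no share or median over them is set against all genes.

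**Figure D1:**
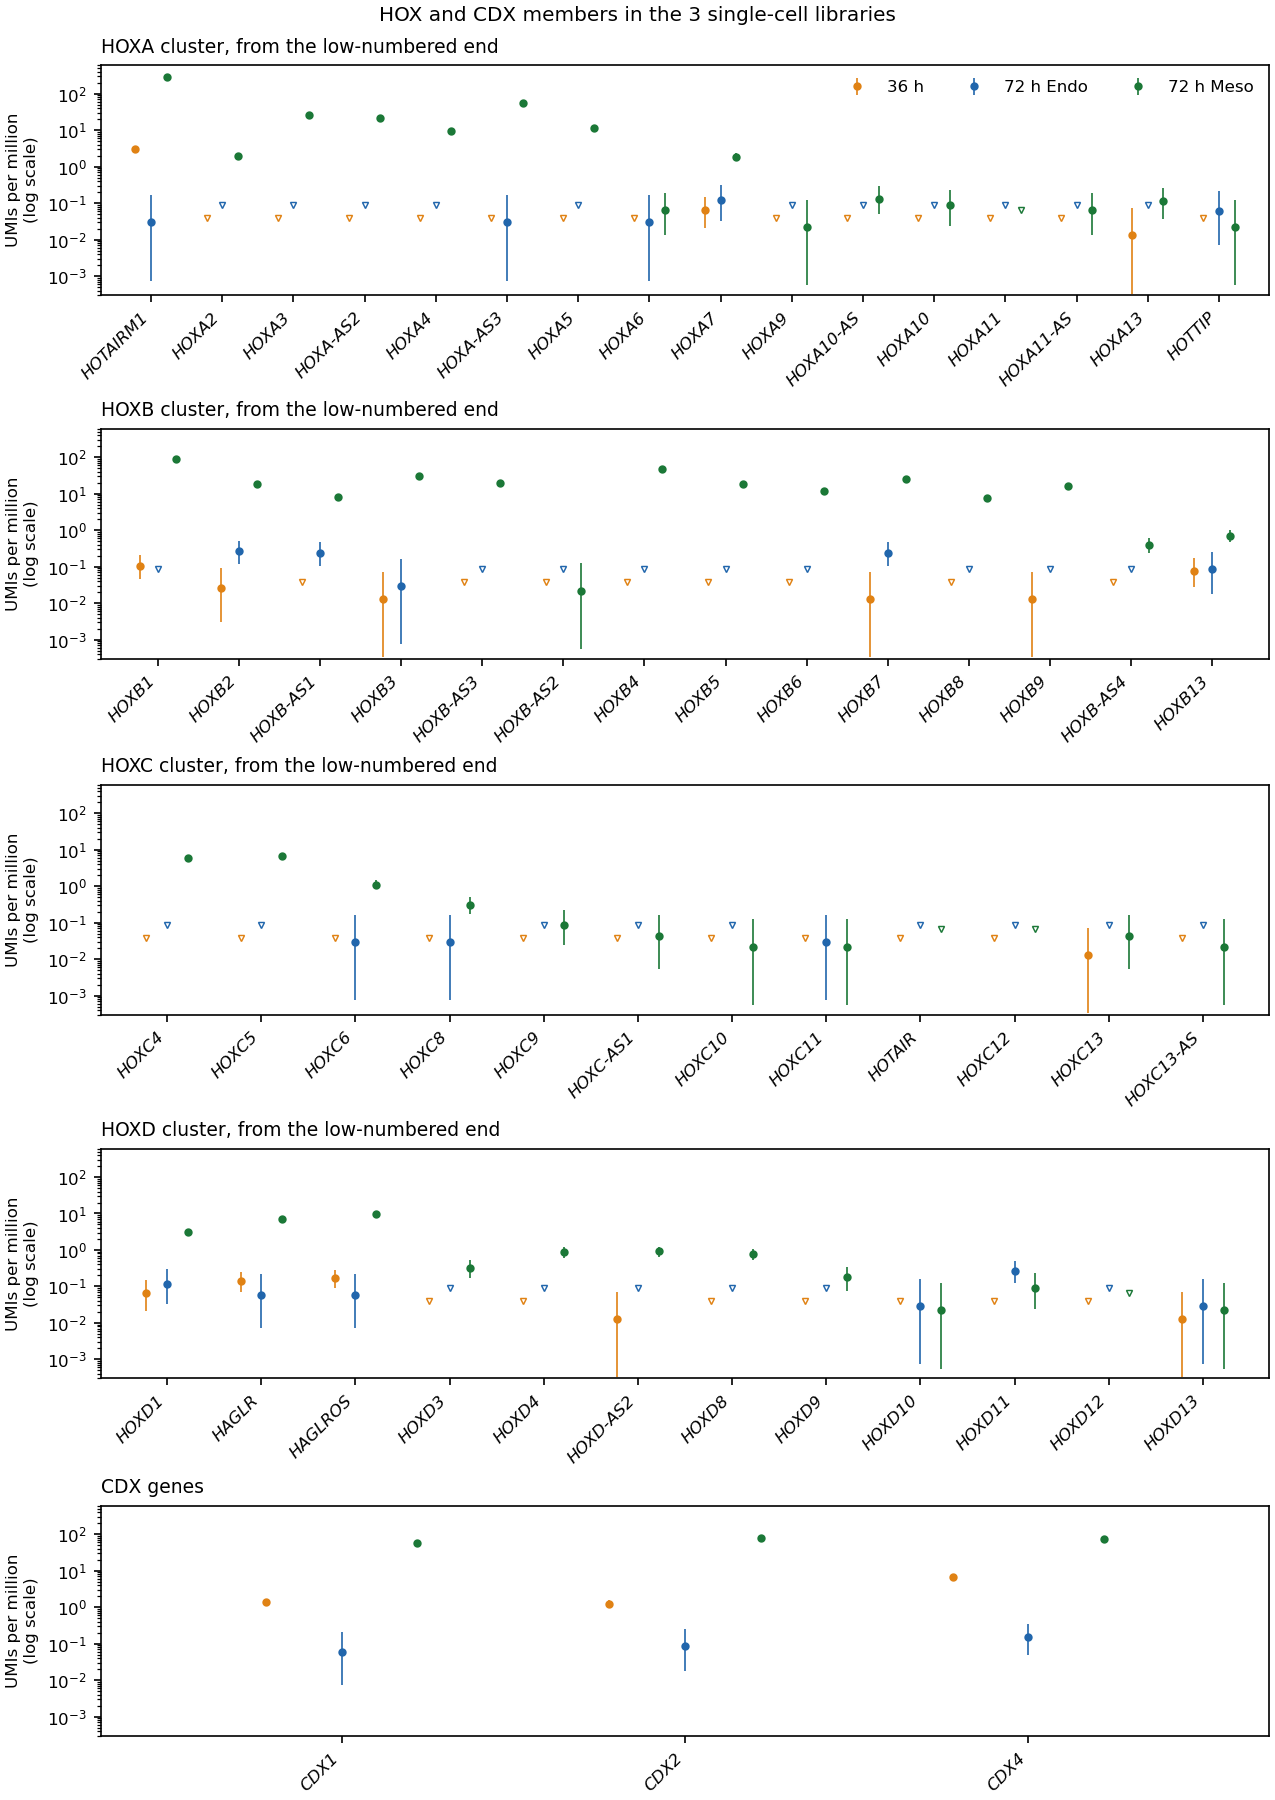
Level of the HOX and CDX genes in the 3 single-cell libraries, in CPM on a log axis, 1 panel a cluster. Points are libraries (36 h orange, Endo blue, Meso green), bars are 95% Poisson intervals and open triangles mark 0 UMIs, drawn at the 3-UMI limit. HOTAIRM1 is the highest point, at 286 in Meso, and CDX4, at 6.57, is the highest of the 36 h library.

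CDX4 had the highest level of the set at 36 h, ahead of HOTAIRM1, CDX1 and CDX2. CDX4 had 507 UMIs at 36 h, 5 in Endo and 3251 in Meso, or 6.57 (6.01 to 7.16), 0.148 and 72.1 (69.6 to 74.6) CPM. CDX1 had 104, 2 and 2671 UMIs, or 1.35 (1.10 to 1.63), 0.0592 and 59.2 (57.0 to 61.5) CPM. CDX2 had 97, 3 and 3512 UMIs, or 1.26 (1.02 to 1.53), 0.0888 and 77.9 (75.3 to 80.5) CPM. All 3 were therefore highest in Meso, intermediate at 36 h and lowest in Endo, but not in the same order. At 36 h CDX4 stood above CDX1 and CDX2, whose intervals overlapped, while in Meso CDX2 was the highest and CDX4 and CDX1 followed with intervals that did not overlap. The ratio of Meso to 36 h was 11.0 for CDX4 (9.99 to 12.1), 44.0 for CDX1 (36.1 to 54.0) and 62.0 for CDX2 (50.7 to 76.7). The ratio of 36 h to Endo was 44.4 for CDX4 (18.9 to 137), 22.8 for CDX1 (6.14 to 190) and 14.2 for CDX2 (4.70 to 69.8), the last 2 resting on 2 and 3 UMIs. CDX2 is also a gene of trophectoderm, the outer layer of the early embryo. The trophectoderm and amnion marker list summed to 4.83 CPM at 36 h, 17.8 in Endo and 5.03 in Meso, with CGB5 and TP63 at 0 in all 3 libraries.

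HOXA made up the largest share of HOX UMIs in Meso, more than 50% of it from HOTAIRM1. The 17 HOXA members summed to 519 CPM (512 to 525). HOTAIRM1, the myeloid-associated antisense RNA of the cluster, had 12907 UMIs in Meso or 286 CPM (281 to 291), 239 at 36 h or 3.10 (2.72 to 3.51), and 1 in Endo. It alone was 55.2% of HOXA UMIs (54.6 to 55.8) and 26.9% of all member UMIs. Its Meso to 36 h ratio was 92.5 (81.4 to 106). HOXA-AS3, transcribed against HOXA3 to HOXA7, had 2451 UMIs in Meso, 0 at 36 h and 1 in Endo. Its Meso level was 54.4 CPM (52.2 to 56.6), at least 1137-fold above 36 h by the exact lower limit of the ratio. HOXA3 stood at 26.6, HOXA-AS2 at 21.8, HOXA5 at 11.5 and HOXA4 at 9.49 CPM in Meso, with HOXA2 at 1.97 and HOXA7 at 1.86. HOXA3 had no UMI in the other libraries and was at least 556-fold above 36 h by the same limit.

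HOXB was the cluster with the most protein-gene UMIs in Meso. Its 14 members summed to 299.9 CPM (295 to 305), 271 of them from the 10 protein genes. HOXB1, the anterior member known in the embryo from hindbrain and early mesoderm, had 4183 UMIs in Meso (92.8 CPM, 90.0 to 95.6), 8 at 36 h (0.104) and 0 in Endo. Its Meso to 36 h ratio was 895 (454 to 2075). By the exact lower limit of the ratio, HOXB1 was at least 849-fold higher in Meso than in Endo. After HOXB1 came HOXB4 at 47.2 CPM (45.2 to 49.3), HOXB3 at 31.1, HOXB7 at 26.0, HOXB-AS3 at 20.0, HOXB2 at 19.0, HOXB5 at 18.5, HOXB9 at 16.7, HOXB6 at 11.7, HOXB-AS1 at 7.98 and HOXB8 at 7.85. The intervals of HOXB-AS3, HOXB2 and HOXB5 overlapped, as did those of HOXB-AS1 and HOXB8. The order did not follow the gene order along the chromosome, since HOXB7 stood above HOXB2 and HOXB5. HOXB4 had no UMI at 36 h or in Endo and was at least 988-fold above 36 h by the exact lower limit. HOXB2 and HOXB7 were among the few with more than a handful of UMIs in Endo, 9 and 8, and the Meso to Endo ratio was 71.3 (37.4 to 157) and 110 (55.6 to 255).

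HOXC and HOXD were low throughout. The 12 HOXC members summed to 14.1 CPM in Meso (13.1 to 15.3), and HOXC5 (46.9%) and HOXC4 (41.4%), which overlap on the same strand, held most of it. HOXC6 followed there with 50 UMIs, 1.11 CPM (0.823 to 1.46). The 12 HOXD members summed to 22.8 (21.4 to 24.3), of which the protein genes gave 5.39. HAGLROS, an RNA transcribed against HAGLR, held 42.3% of the HOXD UMIs, HAGLR, which overlaps HOXD1 and HOXD3, 30.1%, and HOXD1 13.8%. HOXD1 had 142 UMIs in Meso, 5 at 36 h and 4 in Endo. The HOXD sum was 0.401 CPM at 36 h and 0.562 in Endo, the HOXC sum 0.0130 and 0.0888, and in both libraries these rested on few UMIs.

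The 29 members under 50 UMIs in Meso lay mostly at the high-number end of the clusters. HOXD-AS2 had 41 UMIs there (0.909 CPM), HOXD4 39 (0.865), HOXD8 34 (0.754), HOXB13 32 (0.710), HOXB-AS4 18 (0.399), and HOXC8 and HOXD3 14 each (0.310). HOXD9 had 8 UMIs, HOXA10-AS 6, HOXA13 5, and the others 0 to 4. HOTAIR, the HOXC RNA known for acting on HOXD, had no UMI and HOTTIP, at the HOXA13 end, had 1. At 36 h the members under 50 UMIs included HAGLROS with 13 UMIs, HAGLR with 11, HOXB1 with 8 and HOXB13 with 6. In Endo the highest were HOXB2 and HOXD11 with 9 UMIs each and HOXB7 and HOXB-AS1 with 8 each, a set that did not start from the paralogue 1 end.

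Read by paralogue number, levels in Meso were nearly gone from number 10 on. Paralogues 2 summed to 21.0 CPM, 3 to 58.0, 4 to 63.4, 5 to 36.6, 6 to 12.8, 7 to 27.9, 8 to 8.91 and 9 to 16.9. From 10 to 13 the sums were 0.133, 0.111, 0 and 0.887, the last mostly HOXB13 with 32 UMIs. The order was not even, with number 2 below numbers 3 to 5. By range, numbers 6 to 9 summed to 66.6 CPM with 6 of 12 genes at 50 UMIs or more, and 10 to 13 to 1.13 with 0 of 12. At 36 h these ranges stood at 0.0907 and 0.117 CPM, and in Endo at 0.444 each, with no fall between these 2 ranges. Lower paralogue numbers were left out here, so this does not describe a slope over the whole clusters.

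**Figure D2:**
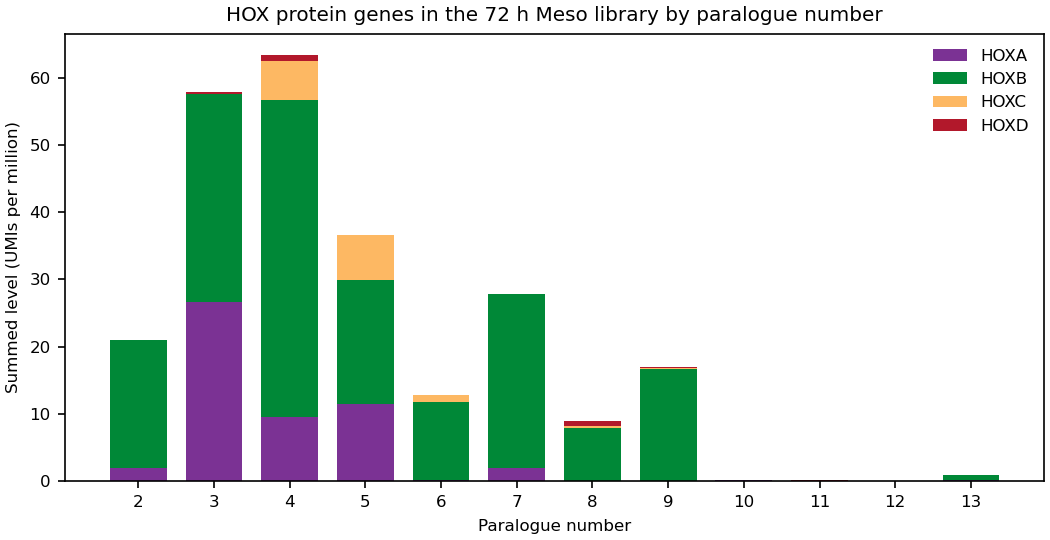
CPM of HOX protein genes in the Meso library by paralogue number from 2 to 13, stacked by cluster, on a linear axis from 0. The bars at numbers 4 (63.4) and 3 (58.0) are the highest, and those from number 10 on are barely visible.

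Most Meso cells held members. A Meso cell had UMIs of a median of 5 members (interquartile range 4 to 7, highest 18), and 98.7% of cells had at least 1, against 19.8% at 36 h and 1.46% in Endo. HOX protein genes were seen in 91.7% of Meso cells and CDX genes in 77.1%. With each cell thinned to 2000 UMIs (3416, 3685 and 5539 cells, with 777, 826 and 93 left out as shallower at 36 h, in Endo and in Meso), the shares with any member were 3.02%, 0.461% and 85.4%. HOTAIRM1 was seen in 83.5% of Meso cells (42.4% thinned), 5.25% at 36 h (0.703%) and 0.0222% in Endo. HOXB1 was seen in 47.8% of Meso cells (17.5% thinned), CDX2 in 44.8% (14.2%), CDX4 in 39.4% (13.2%), CDX1 in 36.1% (11.5%) and HOXA-AS3 in 26.1% (9.66%). In Endo, whose cells had a median of 7680 UMIs against 7874 in Meso, CDX2 was seen in 0.0665% and CDX4 in 0.111% of cells, so the Meso shares stood far above this background. At 36 h CDX4 was seen in 10.5% of cells (1.55% thinned), CDX1 in 2.36% and CDX2 in 2.24%.

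Within Meso, cells were clustered without the members' own counts, and the clusters are described by number and leading genes. The members summed to 919 CPM in cell cluster 1 (1889 cells, led by HIST1H1D and NEFM), 1068 in cluster 2 (1639 cells, UBE2C and AURKA), 1308 in cluster 3 (1160 cells, APLNR, CXCR4 and TBX6), 1085 in cluster 4 (827 cells, LRRC75A) and 752 in cluster 5 (117 cells of low depth). Clusters 3 and 1, the highest and the lowest of the 4 with ordinary depth, were compared after this was seen, as a description. The ratio of cluster 3 to cluster 1 was 5.09 for HOXC5 (3.49 to 7.56), 3.56 for HOXA-AS3 (3.17 to 4.01), 3.16 for HOXC4 (2.24 to 4.50), 3.04 for HOXB-AS3 (2.52 to 3.67) and 2.80 for HOXB5 (2.28 to 3.46). HOXB1 (2.27, 2.08 to 2.47), HOXB3 (2.18, 1.88 to 2.52), HOXB4 (1.97, 1.75 to 2.22) and HOXA3 (1.75) were also higher, CDX4 less so (1.45, 1.32 to 1.59). HOTAIRM1 (1.13, 1.08 to 1.19), CDX1 (1.07, 0.953 to 1.20) and HOXB7 (1.06) were near equal, so HOTAIRM1 did not follow HOXA-AS3 of the same gene cluster. CDX2 was lower in cluster 3 (0.867, 0.784 to 0.959), and so was HAGLR (0.507, 0.330 to 0.757). HOXB1 stood at 62.4, 97.9, 141 and 86.3 CPM in clusters 1 to 4. HOXA3 was instead highest in cluster 4 (48.2, 42.9 to 53.8), with 17.5, 24.5 and 30.5 in clusters 1 to 3, so HOXA3 and HOXB1 did not peak in the same cell cluster. Cluster 4 is not particular to Meso by its leading genes. LRRC75A, CTNNB1 and HNRNPH1 also led cluster 4 at 36 h and cluster 6 in Endo. HOXA-AS3, on the opposite strand of HOXA3, stood at 28.7, 52.5, 102 and 53.2. The median UMI count of a cell was 7799, 8955, 7371 and 7745 in clusters 1 to 4, so cluster 3 was the shallowest of these. The genes used for clustering differed too: TBX6, of paraxial mesoderm, was 3.50 times as high in cluster 3 (3.19 to 3.85), while TBXT (0.644) and MIXL1 (0.548), of the streak, were lower. MSGN1, also paraxial, had a ratio of 1.40 (0.803 to 2.43), HAND1, of lateral mesoderm, 8.44 (4.06 to 19.7, 44 against 9 UMIs) and ALDH1A2 33.7 (176 against 9 UMIs). Their part in the members' ratios was not tested.

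**Figure D3:**
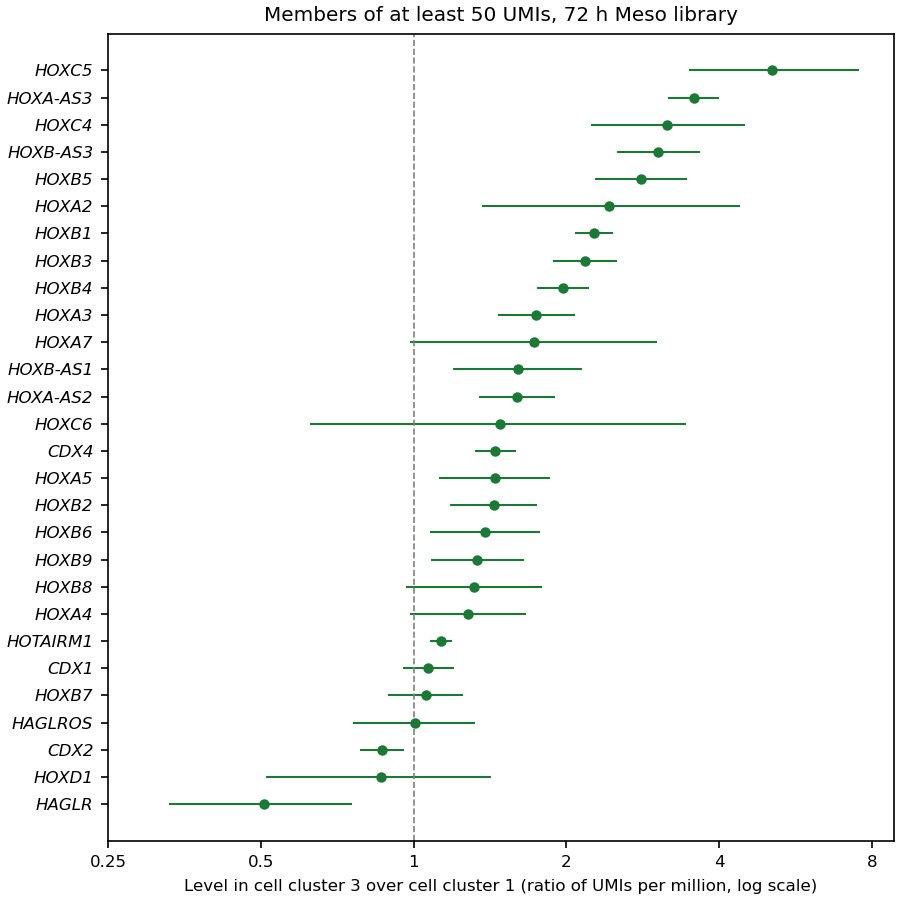
Ratio of Meso cell cluster 3 to cell cluster 1 for 28 of the 29 members with at least 50 UMIs, on a log axis with 95% intervals and a dashed line at 1. HOXC5 (5.09) and HOXA-AS3 (3.56) lie far right, CDX1 (1.07) by the line and HAGLR (0.507) left of it.

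Whether members appeared in the same cells was described on the thinned Meso cells. HOXA-AS3 was seen in 13.4% of the 971 cells with a HOXB1 UMI (11.3 to 15.7) and in 8.87% of the 4568 without (8.06 to 9.73). Of the genes outside the set, TBX6 was seen in 18.8% against 14.1%, CXCR4 in 16.9% against 10.9% and MIXL1 in 30.4% against 36.4%. HOTAIRM1 (43.5% against 42.2%), CDX4 (13.9% against 13.1%), CDX1 (11.5% in both) and CDX2 (13.3% against 14.4%) differed little, and GAPDH, a gene of general metabolism, was at 99.7% in both. Cells with a CDX2 UMI had HOTAIRM1 in 42.6% and HOXB1 in 16.3%, against 42.4% and 17.7% without. By cell, HOXB1 thus went with HOXA-AS3 more than with HOTAIRM1 or the CDX genes.

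At 36 h the members with enough UMIs were compared over the cell clusters of ordinary depth (1, 2, 4 and 5). CDX4 stood at 6.93 CPM in cluster 1 (6.07 to 7.88), 6.99 in cluster 2, 5.40 in cluster 4 and 3.78 in cluster 5 (2.31 to 5.84; 211 cells led by DKK1, CER1 and LHX1). HOTAIRM1 stood at 3.38, 3.46, 2.61 and 0.378 (0.0458 to 1.37), the last from 2 UMIs. The cluster led by the same DKK1, CER1 and LHX1 gave 0.813 (0.264 to 1.90, 5 UMIs) at resolution 0.3 of the clustering and 1.23 (0.531 to 2.42, 8 UMIs) at resolution 1.0, where its interval overlapped those of other clusters, such as 1.73 (1.13 to 2.53). It was the lowest of the ordinary-depth clusters at each resolution, but how far below depended on the clustering. CDX2 ranged from 0.697 to 1.39 over clusters at resolution 0.5 and from 0.426 to 2.25 at 1.0. CDX1 was not lower in cluster 5, at 2.46 (1.31 to 4.21) against 1.45, 1.12 and 1.39. CYP26A1, which degrades retinoic acid, was 520 CPM in cluster 5 and 12.6 to 31.4 in the others, and was among the genes clustered. In Endo the summed members ranged from 1.52 to 5.07 CPM over 7 clusters. The lowest rested on 3 UMIs in a cluster of low depth (0.313 to 4.44) and the highest on 10 UMIs (2.43 to 9.32), and these intervals overlapped.

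**Figure D4:**
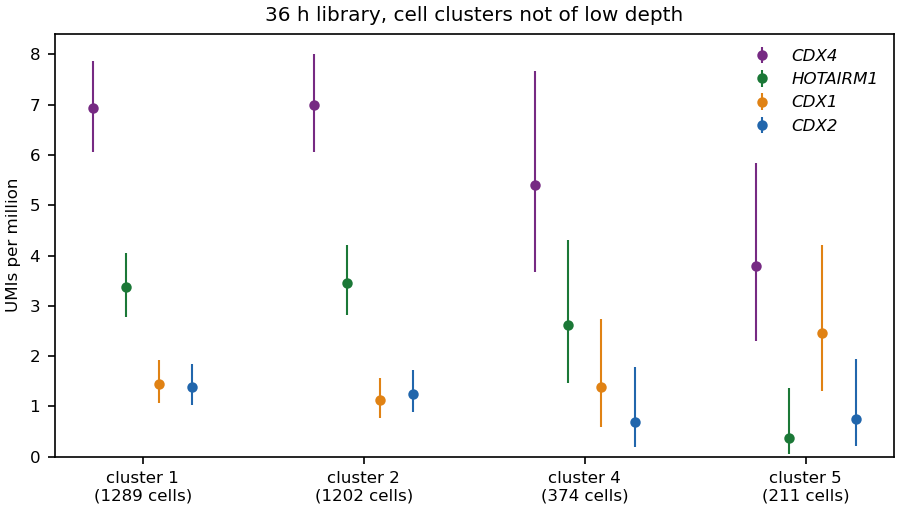
CDX4, HOTAIRM1, CDX1 and CDX2 in cell clusters 1, 2, 4 and 5 of the 36 h library, in CPM with 95% intervals. HOTAIRM1 stands at 0.378 in cluster 5, from 2 UMIs, and CDX1 stands at 2.46 there.

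The bulk comparisons bear on whether CHIR, with or without the other agents, brings these genes up in the first day. Counts there are transcript-based estimates, rounded. In untreated cells at 6 h CDX1 had 0 and 0 counts, CDX2 had 2 and 3 and CDX4 had 8 and 28. With CHIR at 6 h CDX1 had 8 and 10 counts (0.661 and 0.817 CPM) and CDX2 16 and 15 (1.32 and 1.23), above both untreated libraries, while CDX4 had 17 and 19 and overlapped them. None of 4 tested members passed edgeR's quasi-likelihood test with Benjamini-Hochberg adjustment (false discovery rate 0.05), where 2.96% of 14874 genes passed. At an unadjusted p under 0.05 CDX1 and CDX2 passed, and DESeq2 and limma-voom called 0 members. CDX1 had a log2 change of 6.13 ± 1.89 (SE, adjusted p = 0.116) and CDX2 2.45 ± 1.00 (adjusted p = 0.278). The CDX1 level with CHIR was 5.55-fold above a level of 3 counts in the untreated pair. Against the mean of the 4 groups with CHIR, 8 libraries and a choice made after seeing the data, CDX1 was called (6.84 ± 1.70, adjusted p = 0.0257), CDX2 was not (2.70 ± 0.89, adjusted p = 0.0944), and 5.53% of genes passed. Genes around the set that the test called higher with CHIR at 6 h were SP5 (3.71 ± 0.20, adjusted p = 5.74e-09), NKX1-2 (2.66 ± 0.16), WNT5B (2.20 ± 0.30), TBXT (2.24 ± 0.59) and GBX2 (1.72 ± 0.36), the first 4 from the list of posterior streak genes and GBX2 from the list of other homeobox genes. In the posterior streak list 5 of 13 tested genes rose and 1 fell, with a median log2 change of 0.18 against 0.00 over all genes. No gene of the retinoic acid list of 13 and none of the 13 MLL genes was called at 6 h, and of 27 Polycomb genes 2 fell.

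At 24 h the members were compared with the same agent less CHIR. Without CHIR, in BRD alone, CDX1 had 0 and 0 counts and CDX2 0 and 2, 1 of these libraries holding 49503832 counts. With BRD+CHIR CDX1 had 50 and 138 counts (2.05 and 10.1 CPM) and CDX2 92 and 67 (3.77 and 4.89), so that the groups did not overlap. CDX4 had 12 and 99 counts in BRD alone and 20 and 88 with CHIR, and overlapped. CDX1 and CDX2 rose, 2 of 5 tested members, where 35.5% of 15586 genes passed the edgeR test (19.8% higher). CDX1 rose by log2 10.29 ± 1.60 (95% interval 6.18 to 14.4, adjusted p = 0.000106) and CDX2 by 6.79 ± 1.40 (adjusted p = 0.00107). The CDX1 level with BRD+CHIR was 86.8-fold above a level of 3 counts in the BRD pair. A fitted log2 change against a group at 0 depends on the fit's small added count. A fold above a level of 3 counts leaves out the spread between libraries and is not a confidence limit. CDX4 gave 0.85 ± 1.03 (adjusted p = 0.581). The groups differ in their library title series, 38 and 46, in which MTRNR2L12, a nuclear relative of the mitochondrial ribosomal RNA gene MT-RNR2, took 0.183 and 0.209% of counts against 9.06 and 10.8%, so CHIR and series cannot be told apart. In the same comparison the posterior streak list had 11 genes higher and 3 lower of 17 (median 3.12 against -0.02), with TBXT at 149 against 0.0108 CPM, and the retinoic acid list 6 higher and 2 lower of 14, with CYP26A1 at 3.11 ± 0.24. MEIS3, one of the TALE partners of HOX proteins, rose by 3.52 ± 0.19 (adjusted p = 4.39e-10), while PKNOX1, another, fell by 1.39 on the log2 scale.

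At 6 h the 4 groups with CHIR held CDX1 in every library. CDX1 had 10 and 30 counts in AA+CHIR, 7 and 20 in BRD+CHIR and 27 and 12 in JNJ+CHIR, against 0 in all 4 libraries without CHIR. CDX2 had 27 and 17, 23 and 22, and 8 and 22 counts in the same groups, against 2 and 3 in untreated cells and 0 in both libraries of BRD alone. CDX4, known as a WNT target, had 11 and 27, 21 and 19, and 17 and 6 counts, overlapping the 8 to 28 of the 4 libraries without CHIR. CDX4 was thus present in every 6 h library without CHIR, and CDX1 in none of them. The BRD alone libraries are of another title series than the other 6 h libraries. HOXD1 had 9 and 11 counts in AA+CHIR, and at most 7 in every other library at 6 h. HOXA7, too low for the tests within a time, had 3 and 1 counts with JNJ+CHIR at 6 h and otherwise counts in at most 1 replicate of a pair, such as 15 and 0 in untreated cells at 6 h and 19 and 0 with BRD+CHIR at 24 h.

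Between groups of the same time that all had CHIR no member passed the test. At 24 h AA+CHIR against CHIR called 0 of 5 members by edgeR, DESeq2 and limma-voom, none of them at an unadjusted p under 0.05, where 2.86% of genes passed. CDX1 had 154 and 139 counts with AA+CHIR and 59 and 52 with CHIR (log2 1.51 ± 0.85, adjusted p = 0.474), and CDX2 had 21 and 9 against 57 and 80 (-2.10 ± 1.03, adjusted p = 0.402). Libraries of the pairs did not overlap for either gene, and the direction was opposite. HOXB7 had 30 and 23 counts with AA+CHIR and 0 in CHIR, 19.1-fold above a level of 3 counts in the CHIR pair. Its adjusted p was 0.403, and its 95% interval, log2 -1.89 to 17.2, included no change. In the same fit TBXT rose by 0.99 ± 0.15 and CYP26A1 by 3.11 ± 0.20. With JNJ+CHIR CDX1 had 104 and 137 counts, CDX2 119 and 100 and CDX4 85 and 42. In CPM, CDX2 at 24 h stood at 3.77 and 4.89 with BRD+CHIR, 4.18 and 3.84 with JNJ+CHIR, 1.86 and 2.84 with CHIR and 0.745 and 0.345 with AA+CHIR. BRD+CHIR and JNJ+CHIR against CHIR called 0 members at either time with all 3 tools and none at an unadjusted p under 0.05, where 0.0% (BRD+CHIR) and 0.0202% (JNJ+CHIR) of genes passed at 6 h, and 0.0% and 0.154% at 24 h. At 6 h AA+CHIR against CHIR also called none of 4 with any of the tools and none at an unadjusted p under 0.05, where 1.49% passed. The difference between the AA effects at 24 h and 6 h was not called for any of 7 members by any of the tools, nor at an unadjusted p under 0.05 (2.04% of genes passed; CDX2 -2.85 ± 1.41, adjusted p = 0.394).

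**Figure D5:**
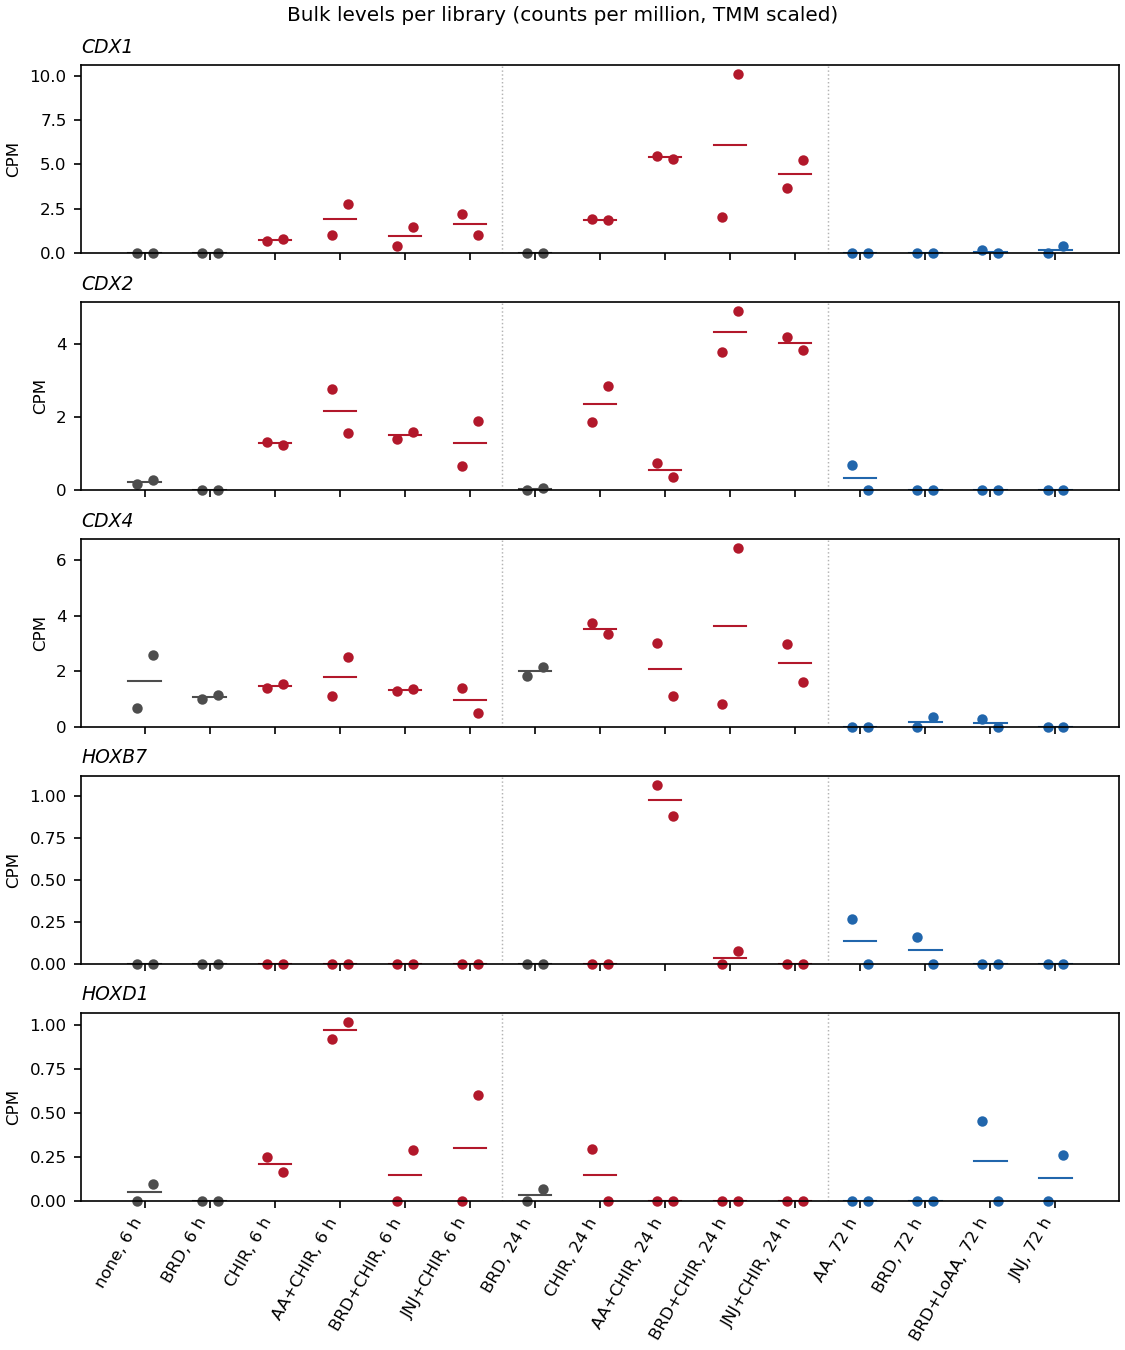
CPM of CDX1, CDX2, CDX4, HOXB7 and HOXD1 in each bulk library by group, grey without CHIR, red with CHIR at 6 or 24 h and blue at 72 h, with lines for the means. CDX1 is at 0 in every library without CHIR at 6 and 24 h and near 0 at 72 h.

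In the AA arm HOXD1 fell from 6 to 24 h, and CDX1 and CDX4 fell from 24 to 72 h. From AA+CHIR at 6 h to 24 h HOXD1 fell from 9 and 11 counts to 0 and 0. The edgeR log2 change was -6.88 ± 2.67 (95% interval -12.6 to -1.19, adjusted p = 0.0446). The 6 h level was 17.6-fold above a level of 3 counts in the 24 h pair, which is not a confidence limit. HOXD1 was 1 of 7 members called, where 41.8% of 16098 genes passed (21.7% lower). Leaving out any 1 of the 4 libraries ended this call, and so did DESeq2 and the replicate block (adjusted p 0.00361 to 0.177 over all alternatives). CDX1 had 10 and 30 counts at 6 h (1.02 and 2.77 CPM) and 154 and 139 at 24 h (5.46 and 5.32 CPM), groups that did not overlap, but was not called (2.83-fold higher in the fit, adjusted p = 0.247). HOXB7 was 0 at 6 h and 30 and 23 at 24 h, but its adjusted p was 0.0826. In CHIR alone no member was called from 6 to 24 h by edgeR (37.4% of genes passed), while DESeq2 called 0 and limma-voom 1. In BRD alone none of 7 was called (11.7% of genes passed), and DESeq2 and limma-voom also called 0. No member passed at an unadjusted p under 0.05 in either of these 2 comparisons. The 6 h and 24 h libraries with CHIR are of different title series, 33 and 38, so time and series cannot be told apart there. From AA+CHIR at 24 h to AA at 72 h CDX1 fell from 154 and 139 counts to 0 and CDX4 from 85 and 29 to 0. The edgeR log2 change of CDX1 was -9.35 ± 2.02 (95% interval -13.6 to -5.05, adjusted p = 0.000656). For CDX4 it was -7.96 ± 2.17 (-12.6 to -3.34, adjusted p = 0.00417). The 24 h levels were 21.8-fold (CDX1) and 8.49-fold (CDX4) above a level of 3 counts in the 72 h pair. These were 2 of 7 members, where 44.8% of genes passed (23.4% lower). Without replicate 1 of AA at 72 h CDX4 was no longer called (adjusted p = 0.0509; 0.00194 to 0.0509 over all alternatives). CDX2, at 21 and 9 and then 5 and 0 counts, was not called (-0.54 ± 1.12, adjusted p = 0.734), and neither was HOXB7. The 72 h cells were sorted and belong to another title series than the 24 h cells, and these cannot be told apart from time. At 72 h no member was high enough to test in any arm: over the 8 libraries CDX1 had at most 3 counts, CDX2 at most 5 and CDX4 at most 3, while 21.3%, 18.5% and 19.4% of genes passed for BRD, JNJ and BRD+LoAA against AA, and 0.0% for BRD+LoAA against BRD. Around them the posterior streak list had 2 genes higher and 10 lower of 17 from 24 to 72 h (median -3.84 against -0.01), with TBXT lower by 6.26 and SP5 by 5.51 on the log2 scale, and CYP26A1 rose by 3.26 ± 0.20.

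The genes that act on or with the set were also compared between Meso and Endo. Of 19 genes of the posterior streak list with 50 UMIs, 14 were at least 2-fold higher in Meso, where 11.5% of the 13734 genes with 50 UMIs in either library were higher by as much. The 14 included WNT5B (168 against 0.770 CPM), HES7 of the segmentation clock (37.8 against 0.444) and NKX1-2 (24.3 against 0.0296). The 2 lower ones were FGF17 (125 against 1463) and GREB1 (11.8 against 35.1). Of 8 TALE genes, which encode the partners of HOX proteins, 2 were higher, MEIS2 (ratio 4.07, 3.31 to 5.03) and MEIS1 (6.74, 3.25 to 16.2), and 4 were lower, PBX3 (0.157) and MEIS3 (0.392) among them. Of 13 retinoic acid genes 5 were higher and 5 lower: ALDH1A2, which makes retinoic acid, stood at 7.18 against 0.0296 CPM, and CYP26A1 at 0.288 in Meso against 858 in Endo and 57.7 at 36 h. Polycomb and MLL genes, which silence and maintain the clusters, had medians of -0.05 and -0.26 on the log2 scale (2 higher and 4 lower of 27, and 0 and 2 of 13). PDX1 and GSX1, ParaHox relatives of CDX, were at 0 in all 3 libraries. The list of 10 ParaHox and other homeobox genes that holds them summed to 28.9 CPM in Meso, 3.29 in Endo and 3.11 at 36 h. OTX2, of the list of 12 anterior neural and forebrain genes, was 0.710 CPM in Meso, 15.2 at 36 h and 325 in Endo. Of 4 genes of that list with 50 UMIs, 1 was at least 2-fold higher in Meso than in Endo and 2 were lower.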

How the data were processed

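Single-cell libraries were made with the 10x 3′ v2 kit and bulk libraries with a stranded total RNA kit, per the labels' protocols. The single-cell files hold UMI counts per gene and cell as deposited by the authors; the submitters' processing notes name Cell Ranger, Seurat 4.0.2 and GRCh38, and the matrix headers give 3.0.2. The bulk table holds expected counts deposited by the authors; the notes name Salmon 1.4.0, limma 3.48.1 and edgeR 3.34.0. Barcodes under 500 genes or over 10% mitochondrial UMIs were dropped (Python 3.11.15, scanpy 1.11.5). Each library was clustered without the member genes (2000 variable genes, 30 components, 15 neighbours, Leiden resolution 0.5, with 0.3 and 1.0 as alternatives; leidenalg 0.10.2). Scrublet marked 0, 0 and 6 cells (0.107% in Meso) and so did not work; no doublets were removed. Poisson and binomial intervals are exact, at 95% (scipy 1.17.1). For levels and bulk folds a count of 0 was read as up to 3. Single-cell folds against a count of 0 use the exact lower limit of the ratio. Bulk expected counts were rounded and tested with edgeR 4.0.16 (quasi-likelihood, filterByExpr, TMM, R 4.3.3), with one fit a time point and one over all times, p-values adjusted over all genes tested by Benjamini-Hochberg. Alternatives were DESeq2 1.42.0, limma-voom 3.58.1, DESeq2 size factors, no filter, a replicate block, only the groups compared, and each library left out. Tested on simulated counts, edgeR recovered 64% (6 h), 54% (24 h) and 65% (72 h) of 2-fold changes, and 86%, 69% and 91% of 4-fold ones, with 9.09%, 6.82% and 3.7% of its calls false. Changes were planted only in genes with a mean of at least 10 counts, so these rates do not cover members below that. Members with at least 50 UMIs in a library, a mean of 1 CPM in a bulk group or a call are named, and other genes come from lists of partners and markers. The members and lists were chosen with earlier results of these data known. 1 member is not reported here by name or value, and sums include it. Positions are from GENCODE v29, promoter windows from RefSeq.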

Additional observations from a re-analysis of the deposited data

How the results depend on the processing

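Deviations of same-numbered libraries correlated by -0.0754 to 0.0120, so no pairing by replicate number was seen, and none was used in the main fits. With 2 replicates a group this cannot tell whether same-numbered samples were grown together. With a replicate block the members called from AA+CHIR at 6 to 24 h went from 1 to 0 (HOXD1 adjusted p = 0.0526), and the block changed no other count of called members. That comparison also gave 0 with DESeq2, 3 with limma-voom (HOXD1, CDX2 and HOXB7), 2 with only the 2 groups fitted (HOXD1 and HOXB7), and 0 to 0 leaving out each library, where the lone sample of a group is assumed to vary like the others. From CHIR at 6 to 24 h limma-voom gave 1 member where edgeR gave 0. From AA+CHIR at 24 h to AA at 72 h, leaving out each library gave 1 to 2 members. Against the mean of 4 CHIR groups, chosen after seeing the data, CHIR against untreated cells at 6 h gave 1 (CDX1). Thinning to 4000 UMIs in place of 2000 gave HOTAIRM1 in 1.43% of 36 h cells and 65.3% of Meso cells and CDX2 in 26.9% of Meso cells; keeping cells with at least 2000 genes gave a Meso sum of 1055 CPM and HOXB1 at 89.9. The log2 change of CDX4, not called in either of these comparisons, reversed at 6 h for CHIR against untreated with limma-voom (0.16) and ranged from -0.81 to 1.10 leaving out each library, and at 24 h for BRD+CHIR against BRD with limma-voom (-0.26) and ranged from -1.28 to 1.68 leaving out each library. The cause of these moves was not tested. At Leiden resolution 1.0 no ratio of highest to lowest HOXB1 could be given, because a cluster of 5 cells held no HOXB1 UMI. Low counts limit the bulk members, and groups held 9 to 298 genes at 0 in 1 replicate and at 50 counts or more in the other.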
